A study of Mus musculus with 11 samples.

Results

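The G1 cell cycle module described here holds 10 genes: the D-type cyclins Ccnd1, Ccnd2 and Ccnd3, the kinases Cdk4 and Cdk6, the kinase inhibitors Cdkn1a, Cdkn1b, Cdkn2a and Cdkn2c, and the pocket protein gene Rb1. They were taken by symbol from the 24319 genes in the expression tables, and all 10 were found and passed the filter on low values that left 11110 genes for testing. RNA was sequenced in 11 libraries from mouse B lineage cells of strain C57BL/6J. B-ALL stands for leukemic cells with the genotype Ebf1+/- Pax5+/-, taken from a lymph node of each of 3 mice with B cell acute lymphoblastic leukemia (mice 686, 713 and 760, 2 libraries each). The dHet proB group (3 libraries) carried Ebf1+/- Pax5+/- Rag2-/- and was grown from c-Kit+ cells of fetal liver over a feeder layer of OP9 stromal cells, with SCF, Flt3 ligand and IL-7 added. The wt proB group (2 libraries) was Ebf1+/+ Pax5+/+ Rag2+/+ and was sorted from bone marrow as Fraction BC. The labels give no mouse ages. By their labelled genotype, both B-ALL and dHet proB cells lack 1 copy each of Ebf1 and Pax5. These transcription factors commit cells to the B lineage and keep them there. Rag2 genotype, tissue, culture and leukemia differ together between the groups and cannot be told apart.

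D-type cyclins bind CDK4 or CDK6 when growth factors or cytokines arrive, and the active kinases phosphorylate RB1, which then releases E2F transcription factors and lets the cell enter S phase. INK4 proteins, here p16 from Cdkn2a and p18 from Cdkn2c, bind the kinases directly. The CIP/KIP proteins p21 (Cdkn1a) and p27 (Cdkn1b) inhibit cyclin E-CDK2 and bind the cyclin D complexes. In B cell precursors, signals from the IL-7 receptor and the pre-B cell receptor set the supply of cyclins D2 and D3, and cyclin D3 is known to be needed for the expansion of pre-B cells. The module is often altered in human acute lymphoblastic leukemia, commonly by deletion of CDKN2A.

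Promoter sequences are shown for the 3 members whose start region bears on the results: Cdk4, the kinase gene called higher in B-ALL against wt proB cells, Cdkn1a, the inhibitor that differed most between mice, and Cdkn2a, whose gene-level value adds up 2 start sites. RefSeq promoters of build GRCm38.p6 matched 7 of the 10 members. Each window holds 250 bases before the start site and 50 after it, read 5′ to 3′ on the gene's strand. The expression files use build mm9, so these coordinates do not apply to them.
Cdk4, chr10:127063285-127063584, plus strand, CACGTG in capitals: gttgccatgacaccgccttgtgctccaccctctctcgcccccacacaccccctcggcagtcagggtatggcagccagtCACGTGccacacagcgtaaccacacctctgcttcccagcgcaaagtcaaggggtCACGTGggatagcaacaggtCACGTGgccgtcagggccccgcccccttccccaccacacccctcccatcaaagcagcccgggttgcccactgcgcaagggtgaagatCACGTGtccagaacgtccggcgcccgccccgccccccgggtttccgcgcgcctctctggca
Cdkn1a, upstream start, chr17:29090729-29091028, plus strand, p53 half-site consensus in capitals: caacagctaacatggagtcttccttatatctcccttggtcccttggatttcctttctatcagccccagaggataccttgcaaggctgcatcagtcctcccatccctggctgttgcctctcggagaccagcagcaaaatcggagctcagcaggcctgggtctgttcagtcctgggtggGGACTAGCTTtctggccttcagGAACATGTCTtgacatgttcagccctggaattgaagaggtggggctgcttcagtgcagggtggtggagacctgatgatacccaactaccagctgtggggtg
Cdkn2a, upstream start, chr4:89294570-89294869, minus strand, TTTCCCGC in capitals: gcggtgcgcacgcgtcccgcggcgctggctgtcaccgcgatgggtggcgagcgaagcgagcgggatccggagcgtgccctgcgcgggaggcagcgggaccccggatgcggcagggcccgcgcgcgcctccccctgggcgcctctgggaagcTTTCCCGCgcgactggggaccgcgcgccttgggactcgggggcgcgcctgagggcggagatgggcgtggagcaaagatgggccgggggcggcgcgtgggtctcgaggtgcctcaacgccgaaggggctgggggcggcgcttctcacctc
Cdkn2a, downstream start, chr4:89282143-89282442, minus strand, bases after the start in capitals: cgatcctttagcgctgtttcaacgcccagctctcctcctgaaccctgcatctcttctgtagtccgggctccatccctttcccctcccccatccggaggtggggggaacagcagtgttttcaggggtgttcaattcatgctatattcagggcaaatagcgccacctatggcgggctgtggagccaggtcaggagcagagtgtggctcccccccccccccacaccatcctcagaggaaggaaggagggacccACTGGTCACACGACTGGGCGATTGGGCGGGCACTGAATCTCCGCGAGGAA
CACGTG is the E-box bound by MYC and related factors. It was searched on both strands and occurs 4 times in the Cdk4 window. At least 1 copy is present in 7.15% of the 32851 mouse promoter windows of the same length, and at least 4 copies in 8 of them. The p53 half-site consensus, searched likewise, matched 2 times in the upstream Cdkn1a window, against 1 or more in 8.36% and 2 or more in 0.359% of all windows. TTTCCCGC, a form of the E2F site, occurs 1 time at the upstream Cdkn2a start, as in 1.07% of windows. The E2F form TTTGGCGC and the STAT motif TTCNNNGAA, present in 0.514% and 8.30% of windows, were searched too and occur in none of the member windows. CACGTG also occurs 1 time in the Cdk6 window and 1 time at the downstream start of Cdkn2c. The matches in the printed windows do not overlap each other. A match describes letters, and binding was not measured. From the upstream start of Cdkn2a comes the transcript for Arf, which restrains MDM2, and from the downstream start that for the INK4 protein p16. The deposited value does not separate them.

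Ebf1 and Pax5, the targeted genes, come before the module itself. Ebf1 had 151 to 212 FPKM in B-ALL, 283 to 369 in dHet proB, with 297 and 542 in wt proB libraries. Pax5 had 35.3 to 52.8 FPKM in B-ALL, 70.9 to 99.0 in dHet proB, with 101 and 57.2 in wt proB libraries. So both were lower in B-ALL than in dHet proB cells, which are labelled with the same Ebf1 and Pax5 genotype (limma adjusted p = 0.0374 and 0.0214). The number of copies left in the leukemic cells was not measured, and Rag2 was not analysed here. Total counts are not in the tables. The steps of low FPKM values put the deepest library at 1.56 times the depth of the shallowest, and each library listed between 13251 and 14947 genes above 0. Whether the libraries of dHet proB and of wt proB cells were made from different animals or cultures is not labelled. Their p-values then describe only how libraries vary, which may be technical.

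Levels are given as FPKM, fragments scaled to transcript length and to the mapped fragments of the library, a measure that corrects for transcript length. The log2 fold changes are of FPKM + 1 and were tested with limma, with p-values adjusted over all 11110 genes. The fits held 8 units, namely the B-ALL mice (3), the dHet proB libraries (3) and those of wt proB cells (2). A gene passed at an adjusted p below 0.05. In B-ALL against dHet proB cells 4 of the 10 members passed, 1 higher and 3 lower, beside 25.5% of all genes tested (14.5% higher and 11% lower). In B-ALL against wt proB cells 5 of 10 passed, 2 higher and 3 lower, beside 18.2% of genes (8.15% higher and 10% lower). For dHet proB against wt proB cells 2 of 10 passed, 1 higher and 1 lower, beside 8.68% of genes (2.18% higher and 6.5% lower). Both B-ALL comparisons share the same B-ALL mice, and the dHet proB and wt proB libraries each serve in 2 comparisons. Members were higher in B-ALL than in dHet proB cells for Ccnd1 alone and lower for Cdkn1a, Cdkn1b and Rb1. Against wt proB cells Ccnd1 and Cdk4 were higher in B-ALL, and Ccnd3, Cdkn1b and Rb1 were lower. The median log2 fold change of the 10 members was -0.87 in B-ALL against dHet proB, where that of all genes was 0.04, and -0.13 in B-ALL against wt proB, where that of all genes was -0.02. In dHet proB against wt proB cells these medians were -0.16 and -0.04.

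**Figure D1:**
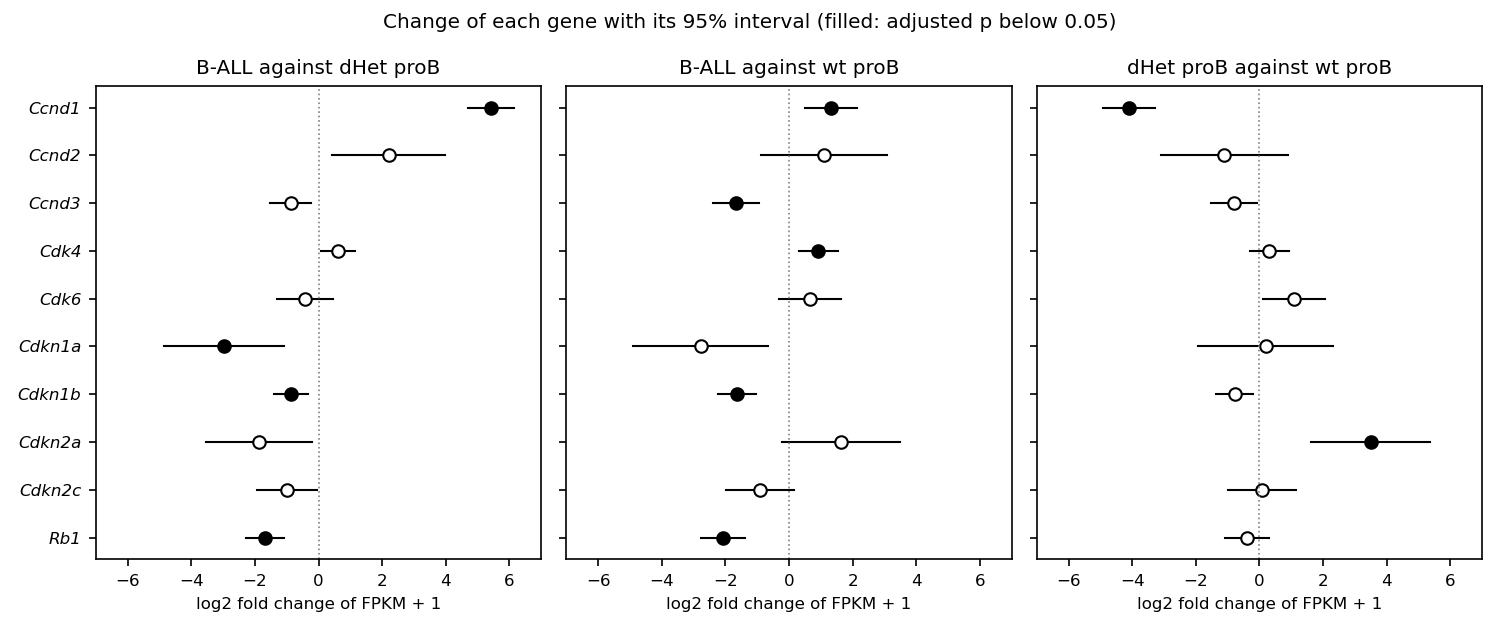
Log2 fold change of FPKM + 1 for each gene in the 3 comparisons (horizontal axis, first-named group over second), with its 95% interval as a line. Filled points passed at an adjusted p below 0.05. Ccnd1 lies far to the right in B-ALL against dHet proB (5.42) and far to the left in dHet proB against wt proB (-4.10), while Rb1 and Cdkn1b lie left of 0 in both B-ALL comparisons.

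Ccnd1, which encodes cyclin D1, had the largest change of the 10 in B-ALL against dHet proB cells. Mouse 686 had 130 and 129 FPKM, mouse 713 had 112 and 112 and mouse 760 had 56.8 and 52.2, against 1.55, 0.844 and 1.21 in the dHet proB libraries. In the wt proB libraries it was 41.1 and 32.3 FPKM. Every B-ALL library thus lay above every library of both other groups, and every dHet proB library lay below all others. The mean was 98.6 ± 39.1 FPKM in B-ALL (SD, n = 3 mice) and 1.20 ± 0.352 FPKM in dHet proB cells (SD, n = 3), an 82.0-fold ratio of means. The log2 fold change was 5.42 (SE 0.318, limma adjusted p = 0.000211). At a pseudocount of 0.1 it came to 6.19, since the dHet proB values lie near the pseudocount of 1. Against wt proB cells, with 36.7 ± 6.23 FPKM (SD, n = 2), the B-ALL change was 1.32 (limma adjusted p = 0.0386), and dHet proB cells lay below wt proB cells by a log2 fold change of -4.10 (limma adjusted p = 0.000470). Where 1 of the 2 wt proB libraries is left out, here and for the other genes, the lone library is assumed to vary like the other groups, so a call lost that way says little about stability. The difference from wt proB cells lost its call without mouse 686 (adjusted p = 0.109), mouse 713 (0.0700), dHet proB library 1 (0.0550) or wt proB library 1 (0.137) or 2 (0.247). That call was also lost at a pseudocount of 0.1 (limma adjusted p = 0.0525), with no filter (0.0689), on the TPM scale (0.065) or with only the groups compared (0.0682). In bulk RNA, more cells that make a transcript and more transcript per cell cannot be told apart.

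Stromal cells also make Ccnd1, so stromal markers were read beside it. The summed FPKM of 17 stroma markers was 0.293 and 0.531 in the libraries of mouse 760, with Ccnd1 at 56.8 and 52.2 FPKM, and between 0.585 and 2.63 in the dHet proB libraries grown on feeder cells. Dcn and Lum were at 0 in every dHet proB library, and 8 of the 17 markers were at 0 in both wt proB libraries, where the sum was 4.82 and 4.89. In mouse 713 the sum was 22.7 and 21.9, of which Fn1 made up 20.5 and 18.7 FPKM. The part of stromal cells in the Ccnd1 difference was not tested. About 21.6% of the 50-base words in Ccnd1 transcripts also lie in the gene on the opposite strand, listed in the tables as Oraov1, and whether counting used strand is not given in the sources used here. Oraov1 had 9.24 to 14.3 FPKM in B-ALL libraries, 10.6 to 14.6 in dHet proB, with 16.8 and 16.9 in wt proB libraries. The part of shared reads in the Ccnd1 difference was not tested.

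Ccnd2, the D-type cyclin that IL-7 and MYC signals induce in B cell precursors, varied within 2 of the 3 groups. It had 144 and 161 FPKM in mouse 760, 54.3 and 52.0 in mouse 686, with 48.4 and 46.1 in mouse 713, against 5.86, 9.45 and 56.3 FPKM in the dHet proB libraries and 35.8 and 31.2 in wt proB libraries. Library 3 of the dHet proB cells lay above 4 of the 6 B-ALL libraries, while the other dHet proB libraries lay below every other library. The log2 fold change of B-ALL against dHet proB cells was 2.203 (95% interval 0.43 to 3.98), which did not pass (limma adjusted p = 0.0695), and that against wt proB cells was 1.10 (limma adjusted p = 0.400). Without dHet proB library 3 the first became 3.12 (adjusted p = 0.00815). That library is titled as the third replicate, while its source label names the second, and it held 290 FPKM of Myc, against 9.39 and 42.3 FPKM in dHet proB libraries 1 and 2.

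Ccnd3, the most abundant D-type cyclin in every library, was lower in B-ALL. FPKM was 295 and 291 in mouse 686, 468 and 441 in mouse 713, with 363 and 334 in mouse 760, against 552, 992 and 521 in dHet proB libraries and 1166 and 1119 in wt proB libraries. No B-ALL library reached the lowest library of either other group. B-ALL mice averaged 366 ± 81.9 FPKM (SD, n = 3) and wt proB libraries 1142 ± 33.5 FPKM (SD, n = 2), a log2 fold change of -1.66 (limma adjusted p = 0.0108). The call was lost when either wt proB library was left out (adjusted p of 0.0853 without library 1, and higher without library 2). Against dHet proB cells, at 688 ± 264 FPKM (SD, n = 3), the change was -0.87 with a 95% interval of -1.52 to -0.22, just outside the threshold (limma adjusted p = 0.0552), and it passed without mouse 713 (-1.04, adjusted p = 0.0426) or without dHet proB library 3 (-1.04, adjusted p = 0.0483). In dHet proB against wt proB cells it was -0.79 (limma adjusted p = 0.183), which became -1.09 (adjusted p = 0.0319) without dHet proB library 2.

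The makeup of the D-type cyclin pool followed from these levels. Ccnd3 made up 61.0% to 74.5% of the summed FPKM of the 3 cyclins in B-ALL libraries, against 90.1% to 99.0% in dHet proB, with 93.8% and 94.6% in wt proB libraries. Ccnd1 made up 27.0% and 27.3% in mouse 686, 17.8% and 18.6% in mouse 713, with 10.1% and 9.55% in mouse 760, against at most 0.277% in dHet proB and 3.31% in wt proB libraries. Mouse 760 was the one in which Ccnd2 held the second place, with 25.6% and 29.4%. The sum itself was not higher in B-ALL. It ran from 472 to 628 FPKM in B-ALL, from 559 to 1003 in dHet proB and from 1182 to 1243 in wt proB libraries. These shares are given as a description, with no test.

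**Figure D2:**
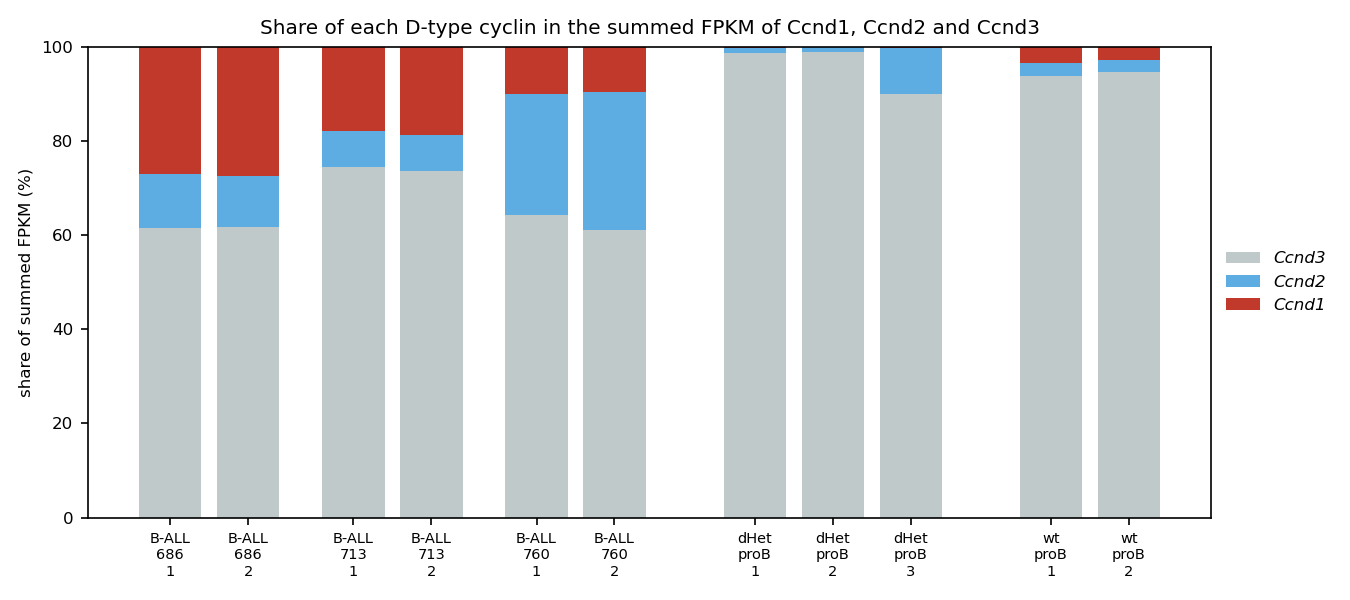
Share of Ccnd3, Ccnd2 and Ccnd1 in their summed FPKM (vertical axis, percent) in each of the 11 libraries. Bars of each B-ALL library show 61.0% to 74.5% Ccnd3, while in dHet proB and wt proB libraries Ccnd3 fills at least 90.1% of the bar.

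Cdk4, the kinase partner of the D-type cyclins with the higher level in all libraries, rose in B-ALL relative to wt proB cells. FPKM was 672 and 659 in mouse 686, 496 and 495 in mouse 713, with 690 and 608 in mouse 760, against 389, 528 and 291 in dHet proB libraries and 322 and 310 in wt proB libraries. All 6 B-ALL libraries lay above both wt proB libraries, and dHet proB library 2 lay inside the B-ALL range. The change against wt proB cells was 0.92 (SE 0.265, limma adjusted p = 0.0482), from means of 604 ± 93.8 FPKM (SD, n = 3) in B-ALL and 316 ± 8.57 (SD, n = 2) in wt proB cells. Against dHet proB cells it was 0.61 (limma adjusted p = 0.0935), and 0.83 (adjusted p = 0.0282) without dHet proB library 2. The call against wt proB cells sits at the threshold. It was lost without mouse 686 (limma adjusted p = 0.134), mouse 760 (0.109) or dHet proB library 1 (0.0763). Without wt proB library 1 or 2 it was lost too, at log2 fold changes of 0.94 and 0.89. On the TPM scale the change was 0.72 (limma adjusted p = 0.0665) and with quantile normalization 0.59 (0.0797), so neither passed. A pseudocount of 0.1 (0.0504), no filter (0.0799) and library 2 of each mouse alone (0.0536) lost the call as well.

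The Cdk4 promoter printed above carries 4 CACGTG E-boxes, and Myc was read beside it. Myc had 203 to 445 FPKM in B-ALL libraries, 9.39, 42.3 and 290 FPKM in dHet proB libraries and 82.5 and 68.4 FPKM in wt proB libraries, and its change did not pass against dHet proB (2.68, limma adjusted p = 0.0886) or wt proB cells (2.10, limma adjusted p = 0.229). Across the groups, Myc and Cdk4 both had their highest mean in B-ALL. Within dHet proB, the library with the highest Myc, library 3, had the lowest Cdk4. The part of MYC in the Cdk4 differences was not tested. Cdk4 shares 17.0% of its 50-base words with Tspan31 on the opposite strand. Tspan31, which encodes a tetraspanin, had 92.1 to 122 FPKM in B-ALL, 86.8 to 91.0 in dHet proB, with 58.2 and 59.1 in wt proB libraries, and was called higher in B-ALL against wt proB cells (0.83, limma adjusted p = 0.00723). Its part in the Cdk4 difference was not tested.

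Cdk6, the kinase that prevails in many early blood cells, was present at far lower levels. It had 17.7 and 18.5 FPKM in mouse 686, 7.30 and 8.45 in mouse 713, with 20.7 and 29.9 in mouse 760, against 23.7, 18.3 and 21.4 in dHet proB, with 11.8 and 7.45 in wt proB libraries. Mouse 713 lay with the wt proB libraries, and mice 686 and 760 lay near the dHet proB libraries. No comparison passed: the change was -0.43 in B-ALL against dHet proB (limma adjusted p = 0.436), 0.65 in B-ALL against wt proB (limma adjusted p = 0.308) and 1.08 in dHet proB against wt proB cells (limma adjusted p = 0.176). Without mouse 713 the B-ALL change against wt proB cells was 1.09 (adjusted p = 0.0265) and that against dHet proB cells turned to 0.015, and dHet proB against wt proB passed (adjusted p = 0.0306). Cdk6 made up 1.45% to 4.69% of the summed FPKM of both kinases in B-ALL, 3.35% to 6.84% in dHet proB, with 2.34% and 3.54% in wt proB libraries.

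Cdkn1a encodes p21, the inhibitor through which p53 arrests the cell cycle. It had 1.11 and 1.14 FPKM in mouse 686, 22.1 and 23.4 in mouse 713, with 2.26 and 2.58 in mouse 760, against 22.9, 56.3 and 59.7 FPKM in dHet proB libraries and 37.9 and 36.5 in wt proB libraries. The libraries of mice 686 and 760 held at most 2.58 FPKM, below all others, and those of mouse 713 touched the lowest dHet proB library. B-ALL averaged 8.76 ± 12.1 FPKM (SD, n = 3) and dHet proB cells 46.3 ± 20.3 FPKM (SD, n = 3), a log2 fold change of -2.97 (SE 0.823, limma adjusted p = 0.0340). Against wt proB cells, at 37.2 ± 1.02 FPKM (SD, n = 2), it was -2.78, with a 95% interval of -4.90 to -0.66 (limma adjusted p = 0.0709). The first call was lost, at adjusted p between 0.0571 and 0.101, without mouse 686 or 760 or any single proB library of either group, and without mouse 713 both changes passed (-4.02, adjusted p = 0.00169, and -3.83, adjusted p = 0.00205).

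Other genes tied to p53 were read beside Cdkn1a, whose upstream promoter window holds 2 p53 half-sites. Trp53, which encodes p53, had 94.9 to 143 FPKM in B-ALL, 70.7 to 92.1 in dHet proB, with 109 and 75.8 in wt proB libraries, with changes of 0.63 (limma adjusted p = 0.0576) and 0.41 (limma adjusted p = 0.246) in B-ALL. Mdm2, a p53 target that encodes the ligase for p53, was lower in B-ALL, with 19.5 to 28.8 FPKM, against 34.8 to 41.1 in dHet proB, with 49.8 and 45.0 in wt proB libraries. Its change was -0.64 against dHet proB (limma adjusted p = 0.0217) and -0.94 against wt proB cells (limma adjusted p = 0.00963). Like Cdkn1a, Mdm2 was highest in mouse 713, at 28.3 and 28.8 FPKM. It had 24.9 and 23.1 in mouse 686, with 19.5 and 21.9 in mouse 760. Mdm2 did not pass the test of differences among the 3 mice (limma F test, unadjusted p = 0.0234, adjusted p = 0.0864).

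Cdkn1b, which encodes p27, the inhibitor that holds resting cells out of the cycle, was lower in B-ALL than in both proB groups. FPKM was 6.08 and 5.63 in mouse 686, 8.25 and 5.97 in mouse 713, with 6.36 and 4.84 in mouse 760, against 14.8, 13.8 and 8.20 in dHet proB, with 19.6 and 23.0 in wt proB libraries. All B-ALL libraries lay below both wt proB libraries, and library 1 of mouse 713 lay just above dHet proB library 3. Means were 6.19 ± 0.807 FPKM in B-ALL (SD, n = 3), 12.3 ± 3.55 in dHet proB (SD, n = 3) and 21.3 ± 2.40 in wt proB cells (SD, n = 2). The change was -0.86 (limma adjusted p = 0.0307) against dHet proB and -1.64 (limma adjusted p = 0.00516) against wt proB cells. The first was lost, at adjusted p between 0.0524 and 0.107, without mouse 686 or 760, dHet proB library 1 or 2 or either wt proB library, and the second without wt proB library 1 (0.0529) or 2 (0.0882). The call against dHet proB cells was also lost with library 1 of each mouse alone (-0.72, limma adjusted p = 0.0612) or the mouse as a random effect (0.0619). So it was with no filter (0.0588) or only the groups compared (0.0524). Library 1 lay above library 2 by 0.41 on the log2 scale in mouse 713 and by 0.33 in mouse 760. Cdkn1b differed least between the mice among the 4 inhibitors, with a coefficient of variation of 13%, against 138% for Cdkn1a.

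Cdkn2a encodes p16 and Arf, which act on CDK4/6 and on MDM2. It had 8.20 and 7.86 FPKM in mouse 686, 6.61 and 7.21 in mouse 713, with 0.458 and 0.399 in mouse 760, against 14.9, 31.7 and 8.59 FPKM in dHet proB libraries and 0.416 and 0.613 in wt proB libraries. All dHet proB libraries lay above all others, and mouse 760 lay with the wt proB libraries at under 1 FPKM. In dHet proB against wt proB cells, with means of 18.4 ± 11.9 FPKM (SD, n = 3) and 0.515 ± 0.139 FPKM (SD, n = 2), the log2 fold change was 3.50 (limma adjusted p = 0.0341). In B-ALL it was -1.87 against dHet proB (limma adjusted p = 0.0925) and 1.63 against wt proB cells (limma adjusted p = 0.193). The dHet proB call was lost without dHet proB library 1 (adjusted p = 0.0897) or 2 (0.0785) or wt proB library 1 (0.253) or 2 (0.226), and without mouse 760 B-ALL passed against wt proB cells at 2.48 (adjusted p = 0.0212).

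Genes beside Cdkn2a on the chromosome were read for the mouse with the low level. Mtap, the neighbour that is often deleted together with CDKN2A in human tumours, had 48.3 and 47.4 FPKM in mouse 760, 53.6 and 47.9 in mouse 686, with 41.6 and 41.9 in mouse 713, against 9.07, 18.5 and 19.8 in dHet proB, with 16.2 and 13.6 in wt proB libraries. Mtap was thus as high in mouse 760 as in the other mice, and was higher in B-ALL than in dHet proB (1.57, limma adjusted p = 0.00720) and wt proB cells (1.59, limma adjusted p = 0.0116). Cdkn2b, the INK4 gene next to Cdkn2a, had 0.190 and 0.0561 FPKM in mouse 760, 0.334 and 0.432 in mouse 686, with 2.68 and 3.73 in mouse 713, and it had 0.444, 1.23 and 1.68 FPKM in dHet proB, with 0.149 and 0.226 in wt proB libraries. DNA copy number was not measured in these files.

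Cdkn2c, which encodes the INK4 protein p18, was the most abundant of the 4 inhibitors in 10 of the 11 libraries. It had 11.4 and 46.5 FPKM in mouse 686, 27.8 and 50.1 in mouse 713, with 60.5 and 63.8 in mouse 760, against 82.3, 117 and 45.3 in dHet proB, with 74.6 and 69.6 in wt proB libraries. No comparison passed, with changes of -0.98 in B-ALL against dHet proB (limma adjusted p = 0.113), -0.91 in B-ALL against wt proB (limma adjusted p = 0.199) and 0.07 in dHet proB against wt proB cells (limma adjusted p = 0.955). Without dHet proB library 3 the first passed (-1.35, adjusted p = 0.0460). Within mice 686 and 713 the 2 libraries differed by -1.94 and -0.83 on the log2 scale (library 1 minus library 2), lower than for all but 1.22% and 2.32% of the genes tested. In those mice 3.68% and 1.60% of genes were at least 2-fold lower in library 1, against 0.266% in mouse 760. So the level of Cdkn2c in mice 686 and 713 depends on the library read.

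Rb1 encodes the pocket protein that the CDK4/6 kinases switch off, and it was lower in B-ALL than in both proB groups. FPKM was 2.11 and 5.03 in mouse 686, 2.96 and 5.30 in mouse 713, with 2.01 and 2.86 in mouse 760, against 9.80, 18.6 and 10.5 in dHet proB, with 17.5 and 15.8 in wt proB libraries. The highest B-ALL library held 5.30 FPKM and the lowest proB library 9.80, so the groups did not overlap. Means were 3.38 ± 0.862 FPKM in B-ALL (SD, n = 3), 13.0 ± 4.92 in dHet proB (SD, n = 3) and 16.7 ± 1.22 in wt proB cells (SD, n = 2). The change was -1.68 (SE 0.264, limma adjusted p = 0.00518) against dHet proB and -2.07 (limma adjusted p = 0.00348) against wt proB cells. Library 1 was lower than library 2 in each mouse (log2 -0.96, -0.67 and -0.36). With library 2 of each mouse alone the changes were -1.35 (adjusted p = 0.0149) and -1.74 (adjusted p = 0.00997), and the wt proB comparison was lost without wt proB library 1 (0.0537) or 2 (0.0552). Rb1 shares 12.0% of its 50-base words with Rcbtb2 and Lpar6 on the opposite strand. In B-ALL against dHet proB cells the change of Rcbtb2 was 0.03 (limma adjusted p = 0.931) and that of Lpar6 was 0.59 (limma adjusted p = 0.0472). Their part in the Rb1 difference was not tested.

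Groups that did not overlap were counted over all libraries. In B-ALL against dHet proB cells 4 of 10 members did not overlap (Ccnd1 higher, and Ccnd3, Cdkn2a and Rb1 lower), beside 34.9% of all genes tested (19.5% higher and 15.5% lower). In B-ALL against wt proB cells 8 of 10 did not (3 higher and 5 lower), beside 48.2% (23.5% higher and 24.7% lower), with Cdk6 and Cdkn2a as the exceptions. Between dHet proB and wt proB cells 5 of 10 did not (Cdk6 and Cdkn2a higher, and Ccnd1, Ccnd3 and Cdkn1b lower), beside 43% of genes (18.9% higher and 24.1% lower).

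**Figure D3:**
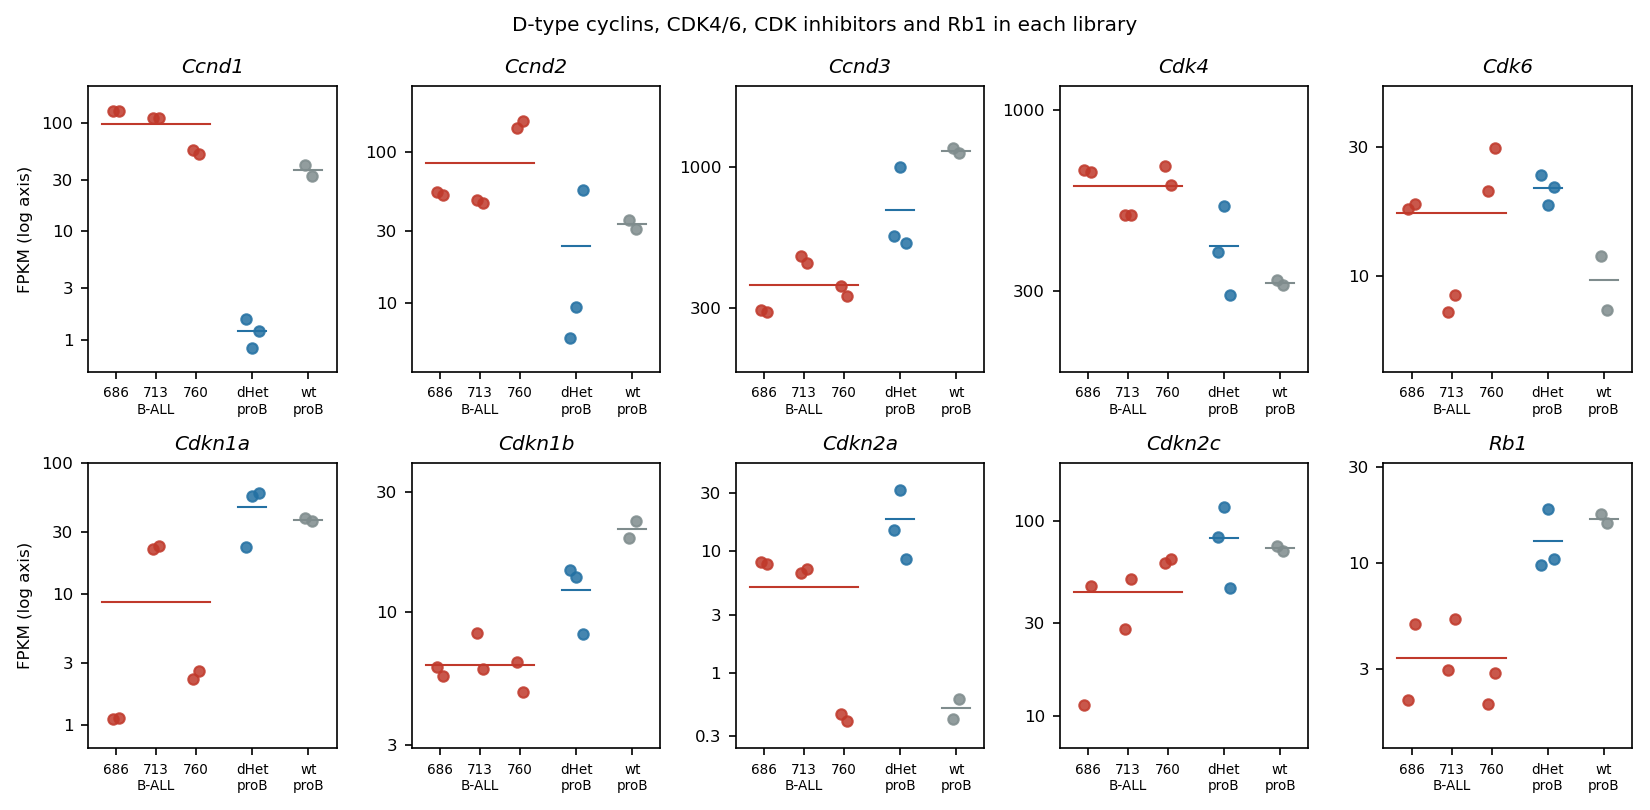
FPKM of each gene (vertical log axis) in every library. Points are single libraries, grouped by B-ALL mouse, dHet proB and wt proB, and lines mark the mean of the 3 B-ALL mice, the 3 dHet proB libraries and the 2 wt proB libraries. Mouse 713 stands above the other mice for Cdkn1a (22.1 and 23.4 FPKM) and below them for Cdk6, and mouse 760 stands below them for Cdkn2a (0.458 and 0.399 FPKM).

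The 4 inhibitor genes were then set against Cdk4 and Cdk6. The Cdkn2a value also holds the transcript for Arf, which acts on MDM2, and the INK4 gene Cdkn2d is not among the 4. The 4 inhibitors summed to 3.88 to 17.2 FPKM per 100 FPKM of Cdk4 plus Cdk6 in B-ALL libraries, against 32.7 to 40.0 in dHet proB, with 39.7 and 40.8 in wt proB libraries. The lowest value, 3.88, was in library 1 of mouse 686, where Cdkn2c was 11.4 FPKM, while library 2 of that mouse had 9.02, the lowest in B-ALL without library 1, and the highest in B-ALL, 17.2, in library 2 of mouse 713. The D-type cyclins summed to 0.695 to 1.25 FPKM per FPKM of both kinases in B-ALL, 1.36 to 1.85 in dHet proB, with 3.72 and 3.72 in wt proB libraries. For both ratios every B-ALL library lay below every proB library. The ratios compare transcripts per length, they were not tested, and protein was not measured.

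**Figure D4:**
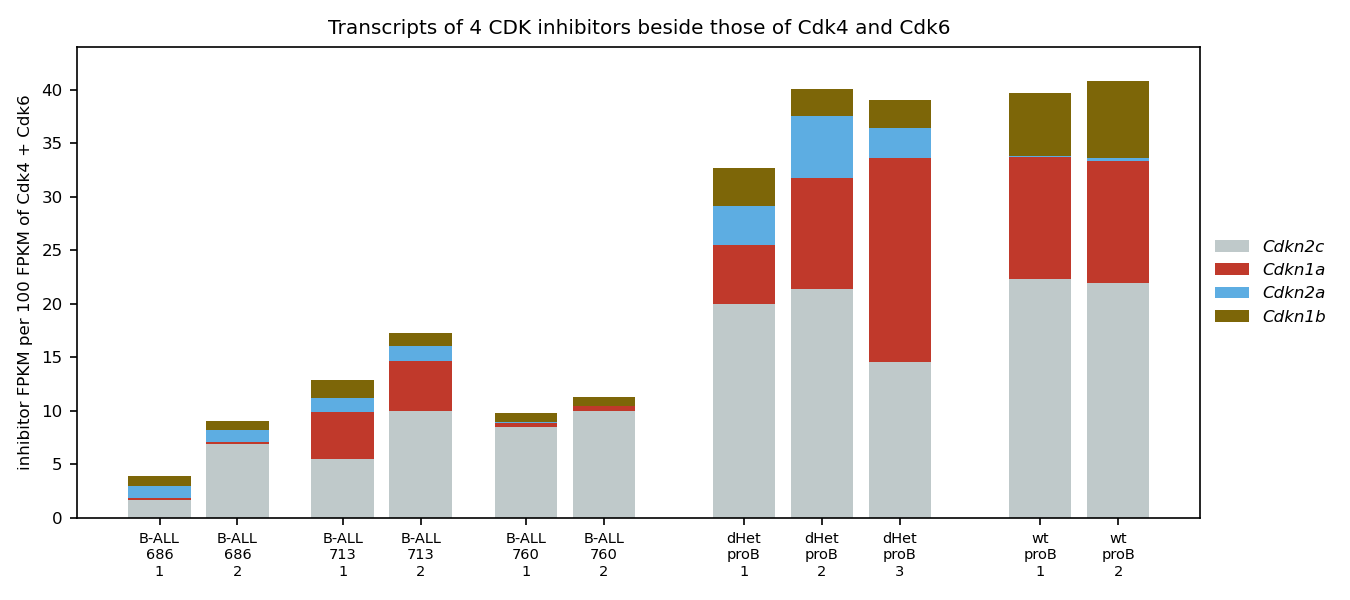
FPKM of Cdkn2c, Cdkn1a, Cdkn2a and Cdkn1b stacked per 100 FPKM of Cdk4 plus Cdk6 (vertical axis) in each library. B-ALL bars reach 3.88 to 17.2 (9.02 to 17.2 without library 1 of mouse 686), dHet proB bars 32.7 to 40.0 and wt proB bars 39.7 and 40.8.

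The 3 leukemias differed from each other in the members they carried. In the limma F test on all 11 libraries, which sets the mice against the spread between libraries and not between animals, 4 of 10 members passed, beside 22.3% of the 11293 genes tested. These were Cdkn1a (adjusted p = 0.000339), Ccnd1 (0.00161), Cdkn2a (0.00328) and Cdk6 (0.00342). Mouse 686 had the highest Ccnd1 and the lowest Cdkn1a, with Cdkn2a present. Mouse 713 had Cdkn1a at a mean of 22.7 FPKM, against 1.13 in mouse 686 and 2.42 in mouse 760, and the lowest Cdk6. Mouse 760 had the lowest Ccnd1 and Cdkn2a and the highest Ccnd2 and Cdk6. Ccnd2 did not pass in that fit (adjusted p = 0.255). Same-numbered libraries of the mice deviated together (correlations of 0.134 to 0.635), and with the B-ALL library number as a block, a fit added after seeing the data, the same 4 members passed. A fit on the 6 B-ALL libraries alone called 7 of 10 members, adding Ccnd2, Ccnd3 and Cdk4, beside 5073 of 10640 genes.

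Summed markers of other cell types differed among the mice, and the markers of a list did not always move together. Red cell and megakaryocyte markers summed to 411 and 516 FPKM in mouse 713, 8.53 and 10.6 in mouse 686, with 108 and 135 in mouse 760. The 15 T and NK cell markers summed to 343 and 279 FPKM in mouse 760, of which Nkg7 made up 328 and 265. In mice 686 and 713 they summed to between 60.7 and 65.7. Cd3e had 1.18 and 1.46 FPKM in mouse 760, against 4.03 to 5.41 in mice 686 and 713. Among the T and NK cell markers that passed the F test among mice, Nkg7 and Gata3 were highest in mouse 760. Cd3d, Cd3e, Cd3g, Cd8a, Cd8b1, Gzma and Prf1 were lowest there, and Klrb1c was highest in mouse 713. Myeloid markers summed to 35.2 to 290 FPKM in B-ALL, 17.1 to 55.8 in dHet proB, with 683 and 771 in wt proB libraries. Of the 17 myeloid markers, Mpo, Elane, Ctsg and Siglech were at 0 in every dHet proB library and none in every B-ALL or wt proB library. T and NK cell markers at 0 in every dHet proB library were Cd3e, Cd8a, Cd8b1, Cd4, Bcl11b, Ncr1 and Gzma. The 8 plasma and mature B cell markers summed to 99.6 and 101 FPKM in mouse 713, to between 237 and 278 in mice 686 and 760, to between 35.2 and 72.9 in dHet proB libraries and to 317 and 367 in wt proB libraries. Ms4a1, which encodes CD20, was at 0 in every dHet proB library, at 1.08 to 5.47 FPKM in B-ALL and at 103 and 54.5 FPKM in wt proB libraries. Of the 6 tested markers on that list, 4 passed the F test among mice (Jchain, Ms4a1, Fcer2a and Cd22). Jchain made up most of the sum in mice 686 and 760, at 201 to 242 FPKM, against 28.1 and 28.0 in mouse 713. Ms4a1, Fcer2a and Cd22 were instead highest in mouse 713. The part of other cell types in the differences among mice and between groups was not tested. All 13 pro-B and pre-B markers stood at 1 FPKM or more in every library of the 3 groups.

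Genes around the module were read from lists by role. Of the other CDK inhibitors, Cdkn1c, which encodes the CIP/KIP protein p57, was lower in B-ALL, at 0.0966 FPKM, against 2.34 in dHet proB (log2 fold change -1.58, limma adjusted p = 0.00405) and 3.57 in wt proB cells (-2.05, limma adjusted p = 0.00212). Cdkn2d, which encodes the INK4 protein p19, had 8.93 and 7.28 FPKM in mouse 760, 10.4 and 10.0 in mouse 686, with 30.4 and 31.0 in mouse 713, against 33.1, 38.5 and 16.6 in dHet proB, with 51.8 and 52.1 in wt proB libraries. Its changes of -0.96 (limma adjusted p = 0.177) and -1.84 (limma adjusted p = 0.0508) did not pass, and it differed among the mice (limma F test, adjusted p = 0.00591), as did Cdkn2b (adjusted p = 0.00122). Both were highest in mouse 713, as was Cdkn1a. The other pocket protein genes, Rbl1 and Rbl2, did not pass in any comparison (0 of 2, also at an unadjusted p below 0.05, limma), and Rbl2 had 13.0 to 16.5 FPKM in B-ALL, 13.2 to 13.7 in dHet proB, with 13.8 and 14.1 in wt proB libraries.

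Downstream of RB1, 1 of 10 E2F and DP genes was lower in B-ALL than in dHet proB cells and 2 of 10 were lower than in wt proB cells, with none higher. Of all genes tested, 11% and 10% were lower in these comparisons. Tfdp2, a dimer partner of E2F factors, had 6.17 FPKM in B-ALL, against 31.8 in dHet proB (-2.18, limma adjusted p = 0.00111) and 17.3 in wt proB cells (-1.37, limma adjusted p = 0.00903). E2f2, an activating E2F, had 22.5 FPKM in B-ALL and 135 in wt proB cells (-2.66, limma adjusted p = 0.0220). In dHet proB against wt proB cells limma called 0 of the 10, with 2 at an unadjusted p below 0.05. In the cyclin E-CDK2 arm 1 of 5 passed, Cdc25a, the phosphatase that activates CDK2, which was lower in B-ALL than in dHet proB cells (-0.63, limma adjusted p = 0.0281). In that comparison 25.5% of all genes tested passed. Of 20 proliferation genes such as Mki67, Pcna and the Mcm2 to Mcm7 series, limma called 0 in each of the 3 comparisons, with 1, 1 and 0 at an unadjusted p below 0.05. Their median log2 fold change was 0.18 in B-ALL against dHet proB, 0.05 in B-ALL against wt proB and -0.17 in dHet proB against wt proB cells. Within dHet proB, library 3, which had the highest Myc of that group, was the lowest for each of the 20. Rrm2 had 713, 1333 and 175 FPKM in dHet proB libraries 1, 2 and 3, and Mcm5 had 114, 197 and 49.8. The coefficient of variation of the 20 ran from 26.9% to 78.2% in dHet proB, against at most 29.4% in B-ALL. With that spread, the absence of calls does not show that proliferation was alike.

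Upstream, 2 of 12 transcription factors were lower in B-ALL than in dHet proB cells and 3 of 12 lower than in wt proB cells. The shares of all genes tested that were lower were 11% and 10%. Foxo1, which is known to activate Cdkn1b, had 13.0 FPKM in B-ALL, against 41.2 in dHet proB (-1.77, limma adjusted p = 0.00522) and 34.8 in wt proB cells (-1.54, limma adjusted p = 0.0143). The 2 libraries had 4.51 and 12.9 FPKM of Foxo1 in mouse 686 and 12.0 and 28.0 in mouse 713. Every B-ALL library lay below every proB library. Foxo3, a related factor, was lower than in dHet proB cells (-0.59, limma adjusted p = 0.0396), and Bcl6, a repressor in B cell precursors (-1.45, limma adjusted p = 0.0189), and Ikzf1, the lymphoid factor Ikaros (-0.65, limma adjusted p = 0.0388), were lower than in wt proB cells. Ikzf3, which encodes Aiolos, had 11.1 and 11.6 FPKM in mouse 713, against at most 0.810 FPKM in mice 686 and 760 (limma F test, adjusted p = 4.98e-05).

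Of 11 tested genes that regulate Cdkn2a or act with Arf, 1 was higher and 3 lower in B-ALL than in dHet proB cells, and 1 was higher and 5 lower than in wt proB cells. Of all genes tested, 14.5% were higher and 11% lower than in dHet proB cells. Against wt proB cells these shares were 8.15% and 10%. Npm1, the nucleolar partner of Arf, had 1115 FPKM in B-ALL, against 456 in dHet proB (1.27, limma adjusted p = 0.0104) and 426 in wt proB cells (1.36, limma adjusted p = 0.0143). Ezh2, the Polycomb methyltransferase that can silence Cdkn2a, had 68.4 FPKM, against 223 (-1.70, limma adjusted p = 0.00108) and 135 (-0.996, limma adjusted p = 0.0114). The 2 libraries of mouse 686 had 48.6 and 82.5 FPKM of Ezh2, and every B-ALL library lay below every proB library. Rnf2, a Polycomb ligase, was lower than in dHet proB cells (-0.57, limma adjusted p = 0.0120), and Cbx7, another Polycomb gene, lower than in wt proB cells (-1.41, limma adjusted p = 0.0316). Between dHet proB and wt proB cells limma called 0 of these 11, with 5 at an unadjusted p below 0.05, where 8.68% of all genes tested passed.

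Of 10 tested genes for degradation of the inhibitors and G1 cyclins, limma called 0 in B-ALL against dHet proB cells, with 1 at an unadjusted p below 0.05. In that comparison 25.5% of all genes tested passed. Usp2, a deubiquitinase for cyclin D1, was the 1 called in the other comparisons, where 18.2% and 8.68% of all genes tested passed. It was lower than in wt proB cells in B-ALL (-1.23, limma adjusted p = 0.0384) and in dHet proB cells (-1.49, limma adjusted p = 0.0295), at 1.31 FPKM in B-ALL, 0.832 in dHet proB and 4.16 in wt proB cells. None of the 3 genes of the CDK-activating kinase, Cdk7, Ccnh and Mnat1, passed in limma, with 0, 1 and 0 at an unadjusted p below 0.05 in B-ALL against dHet proB, B-ALL against wt proB and dHet proB against wt proB cells.

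**Figure D5:**
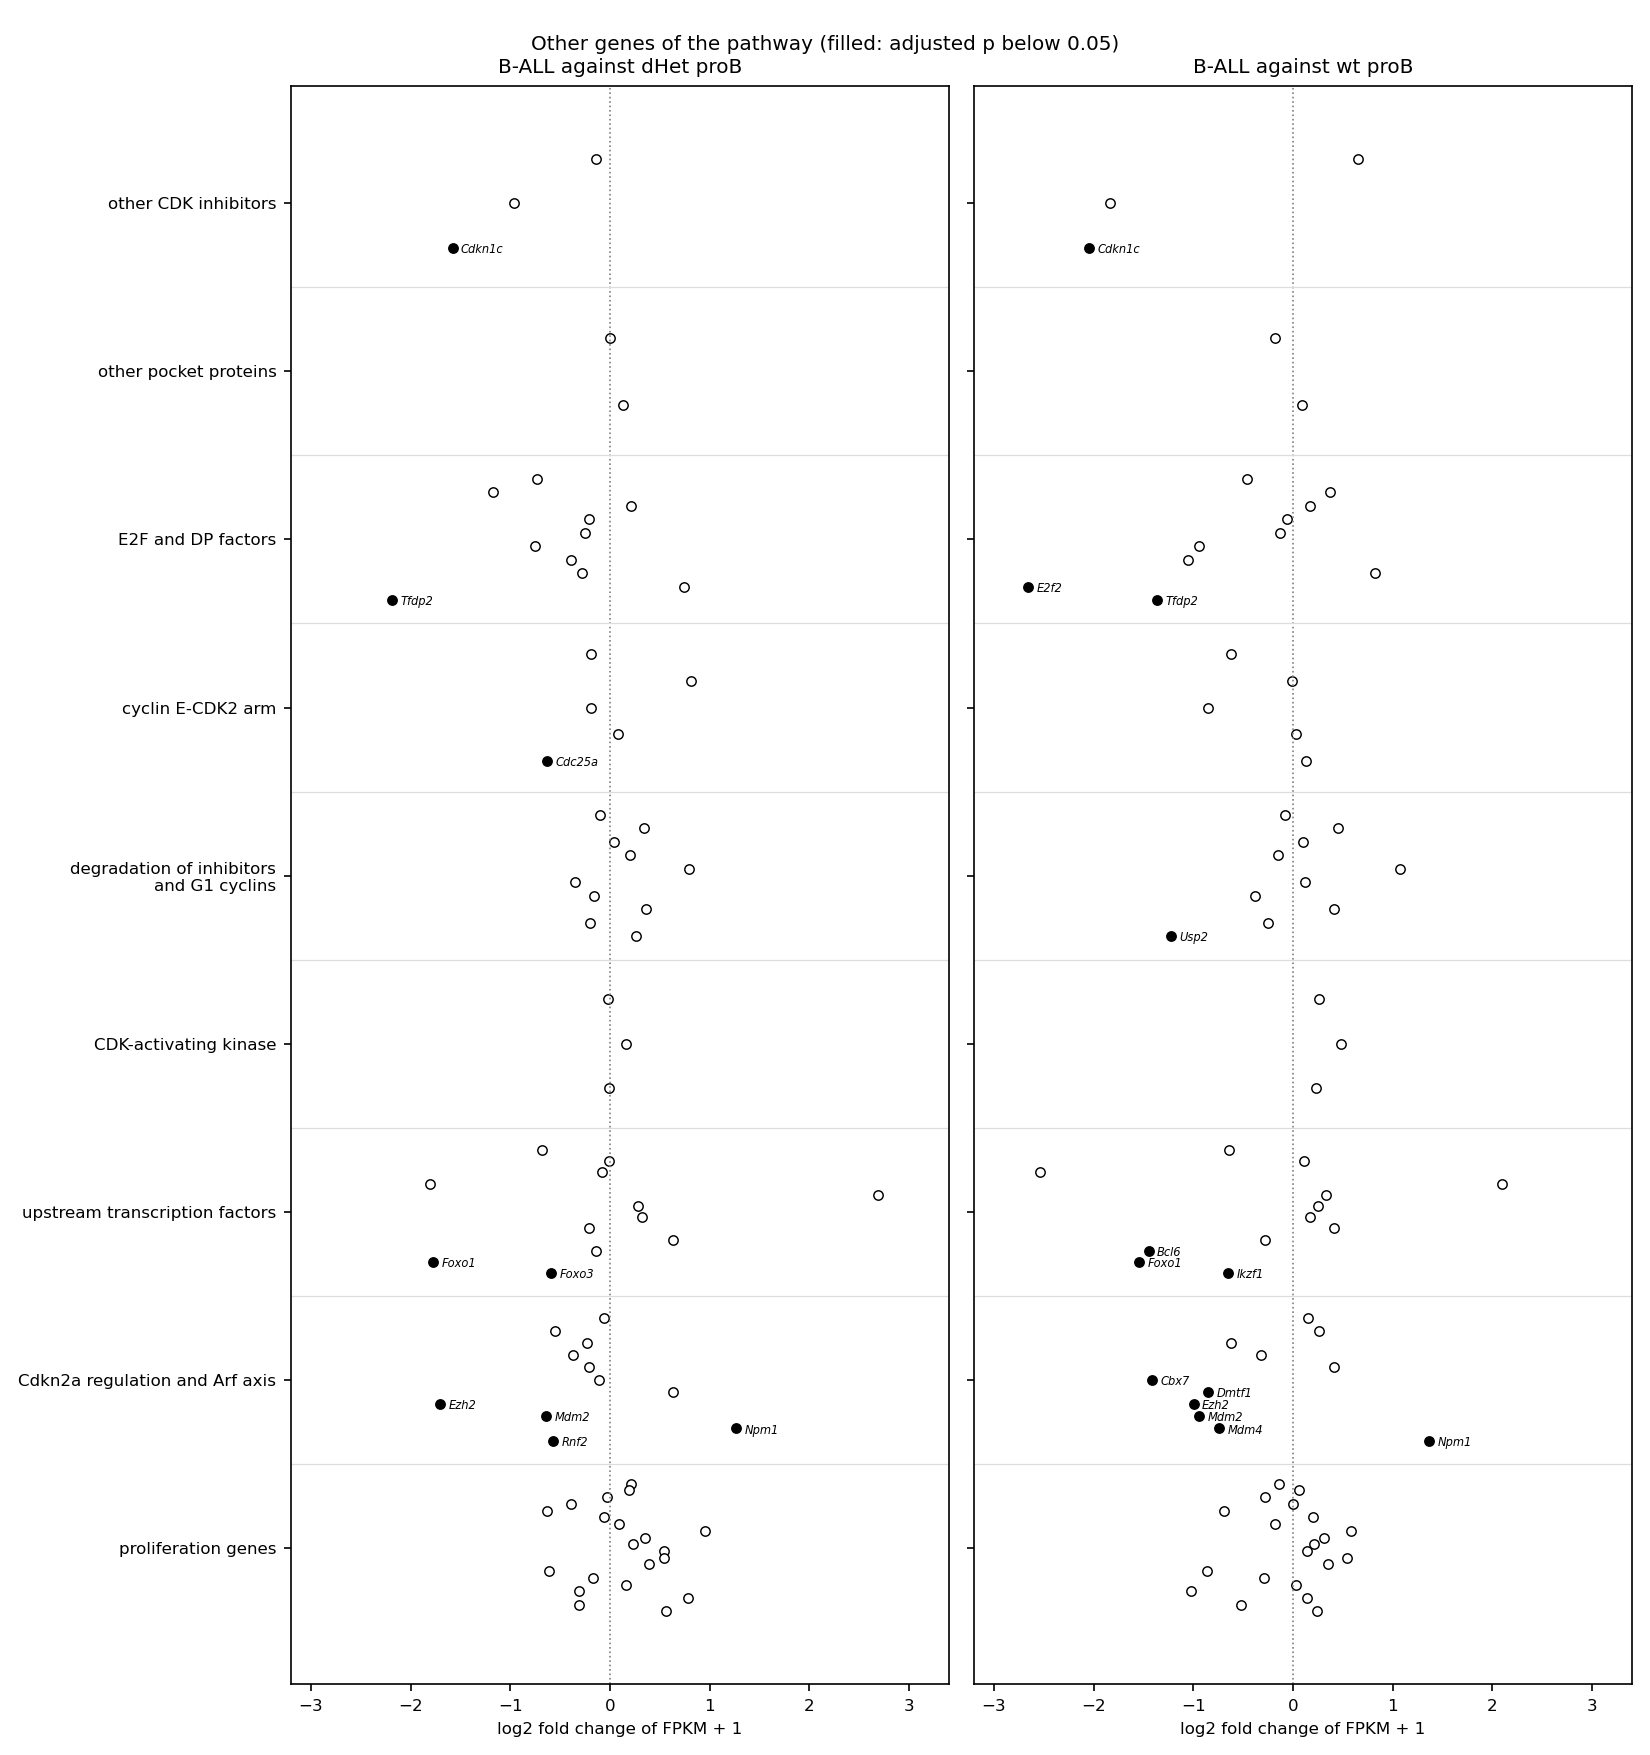
Log2 fold change of FPKM + 1 (horizontal axis) of genes around the module, in rows by role, for B-ALL against dHet proB and B-ALL against wt proB cells. Each point is a gene, and filled, named points passed at an adjusted p below 0.05. Cdkn1c and Tfdp2 are filled left of 0 in both panels, Npm1 right of 0 in both, and no proliferation gene is filled.

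Genes with the most similar pattern were read over the 8 units (3 mice, 3 dHet proB and 2 wt proB libraries), which share their groups, so the correlations are descriptions. Ccnd1 was most like Tlcd2 (Pearson r = 0.998), Prickle3 and Slc16a10. Tlcd2 had 9.95 FPKM in B-ALL, 0.114 in dHet proB and 4.64 in wt proB cells. Cdkn1b was most like Irf4, a transcription factor of B cell maturation (r = 0.988), which had 5.01 FPKM in B-ALL, 15.4 in dHet proB and 35.8 in wt proB cells. Cdk4 was most like Drg1 (r = 0.988), Cdkn1a like Whamm (r = 0.988), Rb1 like Efcab2 (r = 0.986) and Ccnd3 like Serpine2 (r = 0.979). Cdkn2c was most like Csrp1 (r = 0.978), Ccnd2 like Spry1 (r = 0.968), Cdkn2a like Lpcat3 (r = 0.959) and Cdk6 like Akr1c13 (r = 0.945). Among the members themselves the most negative pair was Cdk4 and Cdkn1a (r = -0.78).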

How the data were processed

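RNA-seq of 11 mouse libraries was used. The authors deposited FPKM per gene for 24319 symbols on build mm9. Per the submitters' processing notes, Cufflinks 2.2.1, Cuffnorm 2.2.1 and Cuffdiff were used beside STAR 2.5.3a. FPKM are not counts, so no count test was run. Levels were log2(FPKM + 1), and the 2 libraries of a B-ALL mouse were averaged to 1 unit. Genes with FPKM of at least 1 in at least 2 of 8 units were tested with limma 3.58.1 (R 4.3.3) with a mean-variance trend, two-sided, Benjamini-Hochberg adjusted, at 0.05. Differences among mice used limma's F test on the 11 libraries. The fits were tested on simulated data. Members and lists were chosen with earlier results of these data known. Named genes are all members, up to 3 per list, direction and comparison that passed, by size of change, and the genes most like each member. Trp53, Myc, Cdkn2b, Cdkn2d, Rbl2, Ikzf3, Oraov1, Mtap, Tspan31, Rcbtb2, Lpar6, Ms4a1, Jchain, Fcer2a and Cd22 were named after their values were seen. So were Gata3, Klrb1c, Gzma and Prf1. Alternatives changed the pseudocount, filter, scale, samples, units and replicate block. Promoters are RefSeq GRCm38.p6.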

Additional observations from a re-analysis of the deposited data

Results flagged for a closer look

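Differences among the 3 B-ALL mice were marked for Cdkn1a (limma F test, adjusted p = 0.000339), Ccnd1 (adjusted p = 0.00161), Cdkn2a (adjusted p = 0.00328) and Cdk6 (adjusted p = 0.00342). In each case the means of the mice differed by more than the spread between libraries, and that test does not measure the spread between animals with the same leukemia. Mean Cdkn1a was 22.7 FPKM in mouse 713, 1.13 in mouse 686 and 2.42 in mouse 760. Mean Ccnd1 was 129, 112 and 54.5 FPKM in mice 686, 713 and 760, mean Cdkn2a 8.03, 6.91 and 0.429 FPKM, and mean Cdk6 18.1, 7.88 and 25.3 FPKM in the same order of mice. The part of red cell, T and NK cell, myeloid and stroma markers, which also differed among the mice, was not tested.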

How the results depend on the processing

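Ccnd1 in B-ALL against dHet proB and in dHet proB against wt proB cells passed in all 18 other settings, and Rb1 in B-ALL against dHet proB in 17 of 18, missing with the mouse as a random effect (adjusted p = 0.0504). The count of members called in B-ALL against dHet proB, 4 in the main analysis, was 2 with no filter and 2 with only the groups compared, and ran from 2 to 6 with 1 mouse or library left out. In B-ALL against wt proB cells, 5 in the main analysis, it was 3 at a pseudocount of 0.1, 3 with no filter and 3 on the TPM scale, and ran from 0 to 6. It was 0 in limma without either wt proB library, with 5 members at an unadjusted p below 0.05, and the lone library is then assumed to vary like the other groups. In dHet proB against wt proB cells, 2 in the main analysis, it was 1 with no filter and ran from 1 to 3. For differences among mice it was 4, and 7 with only the 6 B-ALL libraries. For the group comparisons, the share of all genes called in each other setting is not given here. Those counts of members therefore cannot be set against it. Uncalled changes that turned sign with 1 mouse or library left out were Cdk6 in B-ALL against dHet proB (-0.76 to 0.015, the second without mouse 713), Cdkn1a in dHet proB against wt proB (-0.046 to 0.63, below 0 without dHet proB library 2 or 3) and Cdkn2c there (-0.23 to 0.44, below 0 without dHet proB library 2). Rescaling to TPM moved the median of all genes to -0.12 against dHet proB and -0.22 against wt proB cells in B-ALL. Except for settings with fewer samples or other sets of genes, the cause was not tested.

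Replicate numbers do not pair libraries between groups, where 3 of 14 same-numbered pairs had a correlation of deviations above 0.1. Within B-ALL all 6 same-numbered pairs did (0.134 to 0.635). With 2 libraries per mouse, the deviations of library 2 mirror those of library 1, so each value appears 2 times among these pairs. The same holds for pairs of a B-ALL mouse with wt proB cells. Over all groups, 7 of 10 libraries with a same-numbered partner correlated best with a library of their own number. With the B-ALL library number as a block, added after seeing the data, the 4 members that differed among mice were the same. A further fit had the replicate block and the mouse as a random effect. It called 6 members in B-ALL against dHet proB, 6 in B-ALL against wt proB and 3 in dHet proB against wt proB cells. The share of all genes called in that fit is not given here, so these counts cannot be set against it. Cdkn1a in the last comparison came to -0.046. Replicate number 3 belongs to dHet proB library 3 alone, so the block takes that library out of the group comparisons. Ccnd2 in B-ALL against dHet proB came to 3.12 in that fit, the same as without dHet proB library 3. Depth is known only as a ratio between libraries, so no floor is given for low values such as Cdkn2a in mouse 760.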
